A study of Mus musculus with 2 samples.

Results

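Müller glia with an intermediate level of Lcn2 were followed in single-cell RNA libraries of mouse retinas injected with lipopolysaccharide (LPS), a bacterial cell wall component that triggers inflammation. The cells were chosen by measured values. A cell had at least 500 genes, under 25% mitochondrial UMIs (unique molecular identifiers, each counting 1 captured RNA) and at least 2000 UMIs. At least 0.15% of its UMIs came from 8 Müller genes, Rlbp1, Glul, Slc1a3, Dkk3, Crym, Abca8a, Aqp4 and Sox9, with at least 3 of them detected, and it had at most 1 UMI of the leukocyte genes Ptprc and Tyrobp. Lcn2 made up 0.1% to under 2% of its UMIs. This rule found 193 cells, 121 in the knockout and 72 in the control library, of 983 Müller glia (593 and 390) among the 12936 cells (4662 and 8274) with at least 500 genes and under 25% mitochondrial UMIs.

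The knockout library came from retinas of GLAST-CreER; Atg5fl/fl mice given 4-hydroxy-tamoxifen, in which the GLAST promoter drives an inducible Cre in Müller glia and some other GLAST-positive astroglia. The control library came from Atg5fl/fl mice without Cre, for which the labels list no 4-hydroxy-tamoxifen, so genotype, Cre and drug cannot be told apart. Every eye of both groups had received 0.5 µg of LPS in the vitreous, and each library pooled 6 retinas. There was 1 library per group, so no difference has a replicate check, no test between groups was possible, and all intervals are 95% intervals of counting error only. Age, sex, strain, the time between injection and harvest and the days of processing are not given in the labels.

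Müller glia span the whole retina and keep its neurons supplied: they clear glutamate, recycle retinoids, buffer potassium and water, and hold progenitor transcription factors in the adult. After injury or infection they become reactive, with more intermediate filaments, metallothioneins, acute phase proteins and cytokines. Lcn2 (lipocalin 2) is a secreted protein that binds bacterial siderophores and is among the acute phase genes that reactive glia make. Atg5 is needed to attach LC3 to the growing autophagosome membrane, a step of autophagy.

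The libraries held 50676223 UMIs (knockout) and 43669961 UMIs (control), and the selected cells 2730116 and 1060620 of them. The median selected cell had 20619 UMIs (quartiles 16074 to 26133) in the knockout and 13756 (4061 to 20924) in the control library. Shallow cells were thus more frequent among the control cells. Shares of cells with a UMI of a gene depend on depth, and those given below were not adjusted for it. The 2 libraries shared 15 cell barcodes, none of them among the selected cells. Xist, the transcript of the inactive X chromosome, had a UMI in 22.3% of knockout and 41.7% of control cells, and the Y-linked Ddx3y in 57.9% and 31.9%, so cells from both sexes were present in different proportions. Both transcripts were found in 9 knockout cells and 0 control cells. Scrublet, a doublet caller, marked 0 cells in either library at its automatic threshold and has therefore not worked here. The 195 knockout and 575 control cells with the highest scores of all cells included 17 of the 121 selected knockout cells and 1 of the 72 control cells.

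The rule fixed the Müller genes of these cells, so their levels only describe them. All 8 Müller genes were detected in 62 knockout and 34 control cells, and at least 6 of them in 110 and 48 cells. Crym, a thyroid hormone binder and one of the 8, had 1372 CPM (the summed UMIs of a gene scaled to one common total) in the knockout and 1181 CPM in the control library. Apoe and Clu, lipid carriers that the rule did not use, had 2367 and 3951 CPM in knockout cells, against 4319 and 4184 CPM in control cells. Of 7 astrocyte markers 5 were detected in each library, at a summed 234 CPM in knockout and 306 CPM in control cells, most of it Gfap, which reactive Müller glia also express; Pax2 and Gjb6 were at 0 in both. Of 14 monocyte, macrophage and microglia markers 8 and 6 were detected, at 51.6 and 39.6 CPM, with Cd68 and Cx3cr1 the most abundant and Adgre1, C1qa and Ccr2 at 0 in both. Of 8 pigment epithelium markers 5 and 3 were detected, at 11.0 and 6.60 CPM, with Rpe65 at 0 in both. Summed rod markers (12 genes) came to 556 CPM (528 to 584) in knockout cells and 2283 CPM (2193 to 2375) in control cells, with per-cell values that reached 13129 and 23254 CPM, so rod RNA was present in both and higher in the control. Their part in the differences was not tested, and counts in cells low in neuron markers are given beside the lists they touch.

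The first question was where these cells lie within the Müller glia. Lcn2 set the group, and its values describe it. In knockout cells it ranged over 0.107% to 1.98% of UMIs with a median of 0.824% (quartiles 0.420 to 1.46), against 0.101% to 1.93% with a median of 0.624% (0.289 to 1.37) in control cells. The nearest Müller glia outside the limits stood at 0.0872% and 2.01% in the knockout library and at 0.0862% and 2.01% in the control. Müller glia under 0.1% had a median of 0.0112% in the knockout and 0.0103% in the control library, and those with 2% or more had medians of 3.94% and 4.78%. Cells of both libraries thus filled the range from edge to edge.

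**Figure D1:**
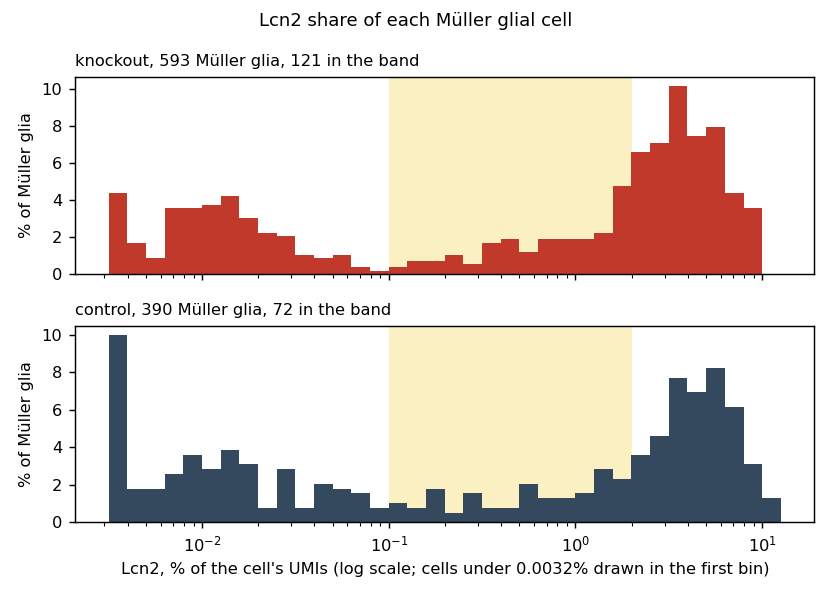
Lcn2 as a share of each Müller glial cell's UMIs on a log axis, with the percentage of each library's Müller glia per bin, knockout above control; the shaded span from 0.1% to 2% marks the selected cells. Both libraries had a low and a very high group of cells, and the 121 knockout and 72 control cells fill the span between them.

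Lcn2 was also counted in bipolar cells and rods with the 8 Müller genes under 0.05% of UMIs. Whether it came there from free RNA, doublets or the cells themselves was not tested. In bipolar cells Lcn2 was 0.0196% of all UMIs in the knockout and 0.0213% in the control library, at median depths of 9542 and 9809 UMIs, and 2.55% of 432 and 1.94% of 309 bipolar cells reached 0.1%. In rods with at least 2000 UMIs, which were shallower (medians 3704.5 and 3309.5 UMIs), 5.19% of 308 and 8.13% of 504 cells reached 0.1%. The medians of the selected cells lay well above these levels, while single cells near 0.1% did not.

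The intermediate cells were a similar share of the Müller glia in both libraries, at 20.4% (17.2 to 23.9) in the knockout and 18.5% (14.7 to 22.7) in the control. The low group took 32.5% (28.8 to 36.5) of knockout and 40% (35.1 to 45.1) of control Müller glia, and the very high group 47.0% (43.0 to 51.2) and 41.5% (36.6 to 46.6). All 3 pairs of intervals overlapped, but overlap does not show equal shares. Each interval counts cells of 1 pooled library and does not cover the spread between mice. Within the range, 15, 25, 29 and 52 knockout cells and 16, 12, 18 and 26 control cells lay at 0.1 to 0.25%, 0.25 to 0.5%, 0.5 to 1% and 1 to 2%.

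A stretch of sequence before the RefSeq start of Lcn2 is shown because this gene defined the cells. The gene lies on chromosome 2 (32384633 to 32388252, minus strand, mm10), and the bases given run from 250 to 61 before the RefSeq start (chr2:32387800-32387989 of GRCm38.p6, minus strand, RefSeq promoter table). The mm10 gene span reaches further out than the RefSeq start, so by that annotation these bases lie inside the gene. The NF-κB motif was searched on both strands and no match was found in this window; 5.42% of all 32851 promoters have one in the same window.
Lcn2: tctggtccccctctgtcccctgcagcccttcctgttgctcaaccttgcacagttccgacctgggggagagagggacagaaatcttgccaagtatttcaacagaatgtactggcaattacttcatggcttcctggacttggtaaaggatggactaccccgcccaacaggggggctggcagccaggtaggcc

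On genes other than Lcn2 and the 8 Müller genes, the intermediate cells lay nearer to the low than to the very high cells. For this, 290 genes were taken that were at least 2-fold higher in very high than in low cells in both libraries, and 97 that were at least 2-fold lower, chosen after the values were seen. The first set includes the acute phase genes Orm1 and Saa3 and the BMP inhibitor Grem1, and the second holds the Notch target Hes5 and the laminin Lama1. The log2 ratio of their summed levels in a cell had a median of 0.60 in low, 0.99 in intermediate and 2.63 in very high knockout cells, and of -0.67, 0.33 and 3.48 in control cells. The intermediate median was thus 19.1% of the way from low to very high in the knockout and 24.1% in the control library. Orm1 was at 1.83, 1.83 and 490.2 CPM from low to very high in knockout cells and at 1.73, 2.83 and 401.7 CPM in control cells. Saa3 followed the same pattern, with 23.8, 14.3 and 2095 CPM in knockout and 11.2, 7.54 and 2238 CPM in control cells. On a log scale 244 of the 290 genes were nearer to the low level in knockout and 246 in control cells. These include genes outside both levels: 86 in knockout and 121 in control cells lay below both. Between both levels lay 197 and 167 of the 290 genes. Within the range the median log2 ratio did not rise steadily with Lcn2. From the lowest to the highest Lcn2 range it was 27.9, 11.8, 7.35 and 25.8% of the way in knockout cells. In control cells it was 6.22, 49.6, 23.5 and 27.3%. Orm1 and Saa3 were near their low-range level in cells whose Lcn2 was raised.

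**Figure D2:**
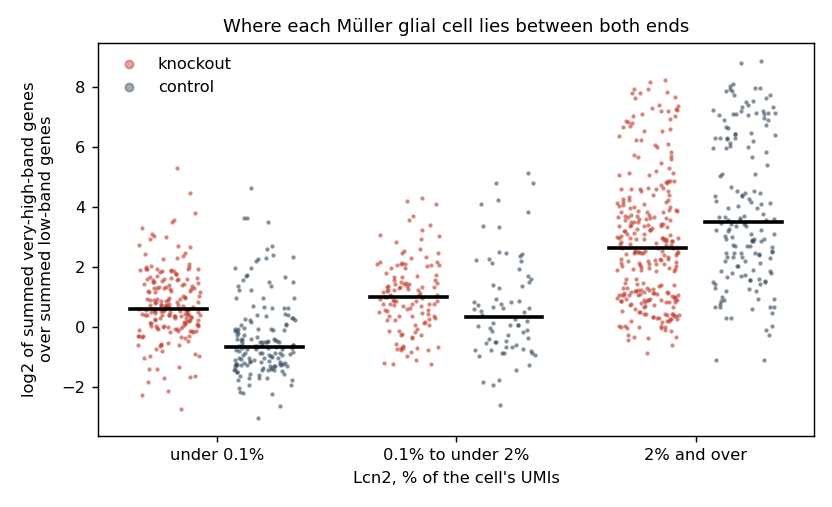
Log2 of the summed CPM of 290 genes higher in very high than in low Lcn2 cells over the summed CPM of 97 genes lower there, 1 point per Müller glial cell, knockout left of control in each Lcn2 range; black bars are medians. The intermediate cells' medians, 0.99 and 0.33, lie nearer to those of the low than of the very high cells.

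The genes that peaked in the intermediate range in both libraries included neuronal ones. Ranked by the smaller of the 2 libraries' ratios of intermediate CPM to the higher of the low and very high CPM, the leading genes were Pak7, Nrg1, Slc17a7, Ano1, Sv2b, Dscaml1, Pde8b, Stmn2, Rbfox1 and Prom1, with a ratio of 2.36 for Pak7 and 1.96 for Slc17a7. They include Slc17a7, the vesicular glutamate transporter of photoreceptors and bipolar cells, and Sv2b, a synaptic vesicle protein. Some rested on single cells: 1 control cell held 84.8% of the 276 control UMIs of Nrg1 and another 77.9% of the 95 of Rbfox1.

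The main comparison set knockout against control cells within the intermediate range. Of 5955 genes with at least 100 UMIs over both libraries, 457 (7.67%) were at least 1.5-fold higher and 655 (11.0%) at least 1.5-fold lower in knockout cells, and the median log2 ratio was -0.02. These percentages are the background for the counts of gene lists that follow, in which the same threshold was used. In cells with rod markers under 0.2% of UMIs (115 knockout, 45 control), 482 of 5498 genes (8.77%) were higher and 452 (8.22%) lower. Many genes of resting Müller glia were lower in knockout cells, while the metallothioneins Mt1 and Mt2, the cytokine Lif, the NF-κB subunit Nfkb1, the growth arrest gene Cdkn1a and the oxidative stress gene Srxn1 were higher.

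Of 37 measured genes of resting Müller glia, 21 were at least 1.5-fold lower and 0 higher, with a median log2 ratio of -0.65. Without the 8 genes of the rule, 17 of 29 were lower and 0 higher, with the same median. Car14, a membrane carbonic anhydrase, had the smallest ratio, with 25.6 CPM (20.0 to 32.4) in knockout and 89.6 CPM (72.5 to 109) in control cells, a ratio of 0.286 (0.207 to 0.394). Apoe had 2367 CPM in knockout and 4319 CPM in control cells, a ratio of 0.548 (0.527 to 0.569), and Cp, the ferroxidase ceruloplasmin, 5270 and 8294 CPM, a ratio of 0.635 (0.619 to 0.653). Progenitor and patterning factors kept by adult Müller glia were among the 21, with ratios of 0.469 for Rax, 0.536 for Sox2, 0.595 for Lhx2, 0.623 for Nfia and 0.644 for Nfib. Ptn, the growth factor pleiotrophin, and the collagen gene Col9a1 had ratios of 0.347 and 0.311. Id2, an inhibitor of basic helix-loop-helix factors, had the largest ratio of the list, 1.39 (1.2 to 1.63), and Clu was at 0.944. In the whole list, rule genes included, the count of 21 was 12 in cells with at least 0.5% Lcn2. It was 9 without the 5 cells of each library with most of a gene. When cells were thinned to 2000 UMIs it was 2, and fewer genes could be counted. Of all genes counted under these 3 settings, 11.3%, 3.58% and 10.8% were lower.

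The rule's own genes cover several functions of the Müller cell and are given as a description, since the rule used them. Rlbp1, the retinaldehyde binding protein of the visual cycle, had 209 CPM in knockout and 387 CPM in control cells (ratio 0.541, 0.476 to 0.616). Slc1a3, the glutamate transporter GLAST, had 736 and 1244 CPM (0.592, 0.552 to 0.635), and the water channel Aqp4 237 and 395 CPM (0.601, 0.531 to 0.681). Abca8a, a lipid transporter, had the smallest ratio of the 8, at 0.335 (0.284 to 0.394). Glul, glutamine synthetase, had 958 CPM in knockout and 1347 CPM in control cells, a ratio of 0.711 (0.666 to 0.759) that did not reach 1.5-fold. Its per-cell median was 751 CPM in knockout and 669 CPM in control cells, so medians and sums differed in direction, and the upper quartile was 1107 CPM in knockout and 1415 CPM in control cells. Crym (1.16) and Sox9 (1.16) were slightly higher in knockout cells.

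**Figure D3:**
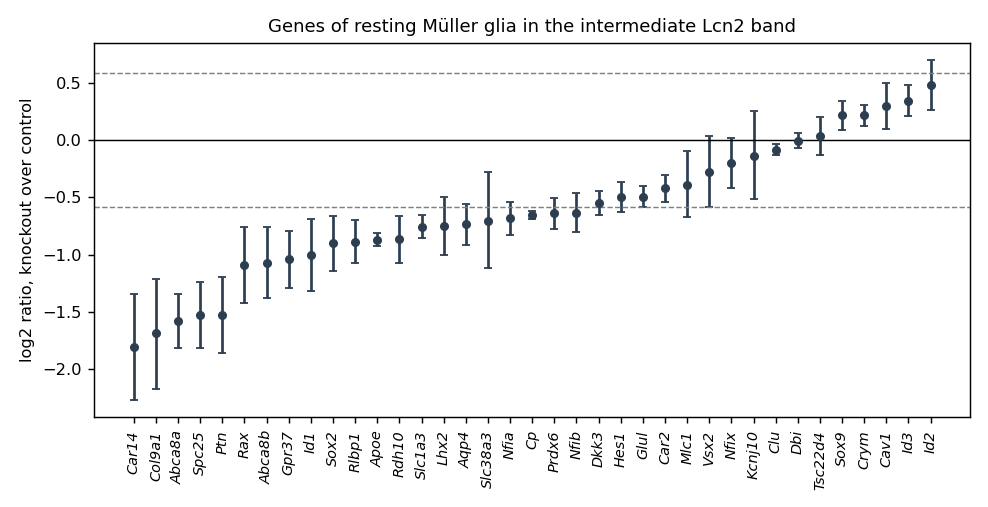
Log2 ratio, knockout over control, of the summed CPM of the 37 measured genes of resting Müller glia in cells with intermediate Lcn2; bars are 95% intervals of counting error and dashed lines mark 1.5-fold. 21 genes lie below the lower dashed line, from Car14 to Nfib, and 0 above the upper. The 37 genes include the 8 that the rule used, 4 of them among the 21.

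Neuron RNA and sex-linked transcripts differed between these same cells. In the 103 knockout and 39 control cells with neuron markers under 0.3% of UMIs, 17 genes of the whole list were lower. Of all 4521 genes counted there 9.14% were lower. The limit was chosen after the data were seen. The count of 17 and the list medians that follow include the 8 rule genes. Among cells with Ddx3y and without Xist (61 knockout and 23 control cells) the list's median log2 ratio was -0.80, and among cells with Xist and without Ddx3y (18 and 30 cells) it was -0.69. Glul went opposite ways in these 2 sets: with Ddx3y it had 899 CPM in knockout and 1941 CPM in control cells (ratio 0.463), and with Xist 1163 and 899.7 CPM (1.29). Rlbp1 was lower in knockout cells in both sets, at 0.356 and 0.564, and so was Apoe, at 0.399 and 0.436.

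Several genes of resting glia were closer between the libraries in cells with more Lcn2. Abca8a and Rlbp1 are among the 8 genes that the rule used, and Lcn2 set the ranges, so these values are a description. The lowest range held 15 knockout and 16 control cells. Abca8a stayed between 83.4 and 114 CPM in knockout cells in the 4 ranges, while control cells had 602 CPM at 0.1 to 0.25% Lcn2 and 171 CPM at 1 to 2%. Rlbp1 in knockout cells lay between 192 and 237 CPM throughout, against 694, 343, 331 and 276 CPM in control cells from the lowest to the highest range. Apoe had ratios of 0.323, 0.433, 0.485 and 0.915 from the lowest to the highest range. Over the whole list, which includes the 8 rule genes, 23 of the 37 genes were at least 1.5-fold lower in low Lcn2 cells. In intermediate cells 21 were lower and in very high cells 3, and from low to very high 1, 0 and 8 were higher. Of all 5955 genes 1197, 655 and 287 were lower, so fewer genes were lower in very high cells in general. In very high cells Abca8a was higher, with 34.4 CPM in knockout and 17.2 CPM in control cells. The difference between ranges was not tested.

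**Figure D4:**
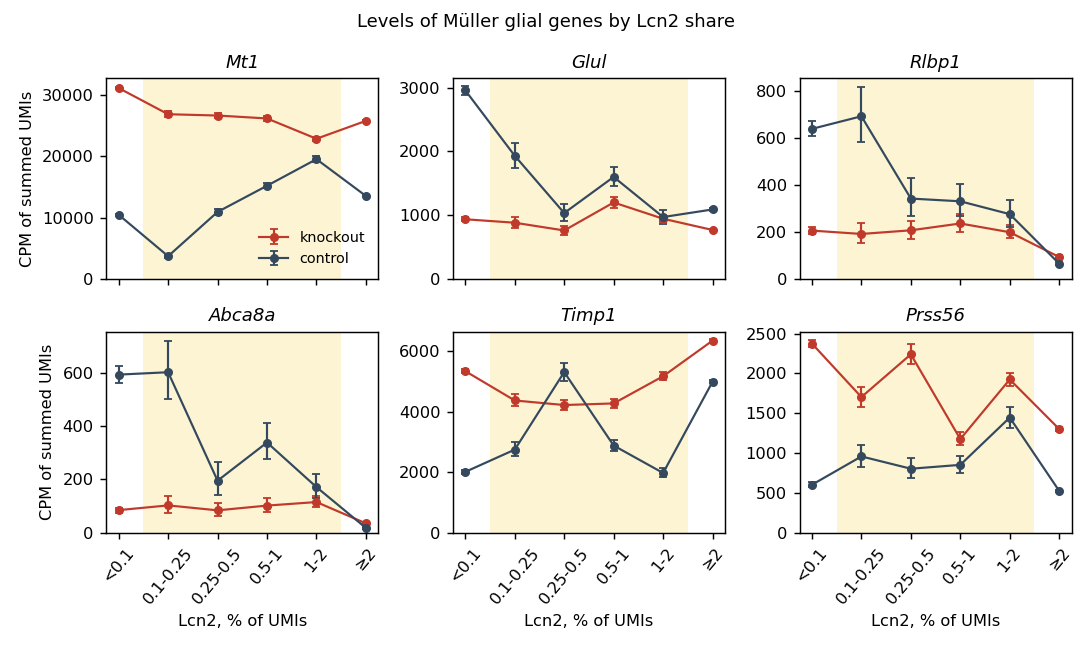
CPM of summed UMIs of 6 Müller glial genes by the cells' Lcn2 share, knockout and control, with 95% Poisson intervals; the shaded ranges from 0.1% to 2% hold the intermediate cells. Rlbp1 and Abca8a stay nearly level over the shaded ranges in knockout cells and are highest there at 0.1 to 0.25% in control cells. Mt1 at 1 to 2% is 22822 CPM in knockout and 19498 CPM in control cells. Glul, Rlbp1 and Abca8a are genes that the rule used.

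Metallothioneins, small proteins that bind zinc and copper and are induced by metals, glucocorticoids and inflammation, were higher in knockout cells. Mt1 (chromosome 8, 94179082 to 94180327) was the most abundant gene of the lists, with 25066 CPM (24878 to 25254) in knockout and 13463 CPM (13243 to 13686) in control cells, a ratio of 1.86 (1.83 to 1.90). Mt2 beside it (94172664 to 94173568) had 8241 and 4275 CPM, a ratio of 1.93 (1.87 to 1.99). The median knockout cell had 23953 CPM of Mt1 (quartiles 9512 to 37130) and the median control cell 6234 CPM (2477 to 19188), so the groups overlapped broadly. Of 12 measured metal genes 4 were higher, Hmox1, Tfrc, Mt2 and Mt1, and 1 lower, Cp. Tfrc, the transferrin receptor, had 78.4 and 33.9 CPM (2.31, 1.62 to 3.39), and the ferritin chains Fth1 and Ftl1 had ratios of 1.48 and 1.46, below the threshold.

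The size of the metallothionein difference depended on which cells were compared. By Lcn2 range, from lowest to highest, the ratio of Mt1 was 7.24, 2.44, 1.72 and 1.17. Knockout cells had 26813, 26602, 26125 and 22822 CPM, while control cells had 3703, 10909, 15171 and 19498 CPM. By sex-linked transcripts, Mt1 was 23961 CPM in knockout and 3938 CPM in control cells with Ddx3y (ratio 6.08), and 31578 and 18297 CPM in cells with Xist (1.73). The direction was the same in all 6 sets.

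Among 33 measured reactive gliosis genes, 7 were higher and 5 lower, with a median log2 ratio of 0.10, so the list as a whole was near the median of all genes. Lif, a cytokine that reactive Müller glia release, had 658 CPM (628 to 689) in knockout and 210 CPM (184 to 240) in control cells, a ratio of 3.13 (2.72 to 3.61). It was detected in 74.4% of knockout and 34.7% of control cells, and 1 control cell held 40.8% of the control UMIs. Timp1, an inhibitor of metalloproteinases, had 4627 and 3060 CPM (1.51, 1.45 to 1.57), with 1 control cell holding 23.6% of the control UMIs. Its ratio was under 1 in 1 of the 4 Lcn2 ranges, 0.795 at 0.25 to 0.5%, and it was 1.06 over all cells with under 0.5% Lcn2. The intermediate filament gene Nes and the lipid kinase Sphk1 had ratios of 1.83 and 1.55. Socs3, the feedback inhibitor of STAT3 signalling, was lower, with 57.1 CPM (48.5 to 66.8) in knockout and 210 CPM (184 to 240) in control cells (0.272, 0.220 to 0.335), and it was lower in all 4 Lcn2 ranges.

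The filament genes Gfap and Vim, the classical signs of gliosis, did not reach 1.5-fold. Gfap had 190 CPM (174 to 208) in knockout and 239 CPM (210 to 270) in control cells (0.798, 0.686 to 0.932), and Vim 1605 and 1890 CPM (0.849, 0.805 to 0.895). Both turned with the sex-linked transcripts: Gfap had a ratio of 2.44 in cells with Ddx3y and 0.256 in cells with Xist, and Vim 1.35 and 0.659.

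Prss56, a serine protease of Müller glia tied to eye growth, had 1772 and 1051 CPM, a ratio of 1.69 (1.58 to 1.80), and was higher in knockout cells in all 4 Lcn2 ranges, although the ratio was 1.40 over all cells with at least 0.5% Lcn2. Of 14 measured matrix and protease genes 5 were higher, Plaur, Prss56, A2m, Plat and Timp1, and 2 lower, among them Col9a1. Plaur, the urokinase receptor, had 46.5 and 17.9 CPM (2.60, 1.60 to 4.46). Timp3 was the second most abundant gene of this list, at 1612 and 1855 CPM.

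**Figure D5:**
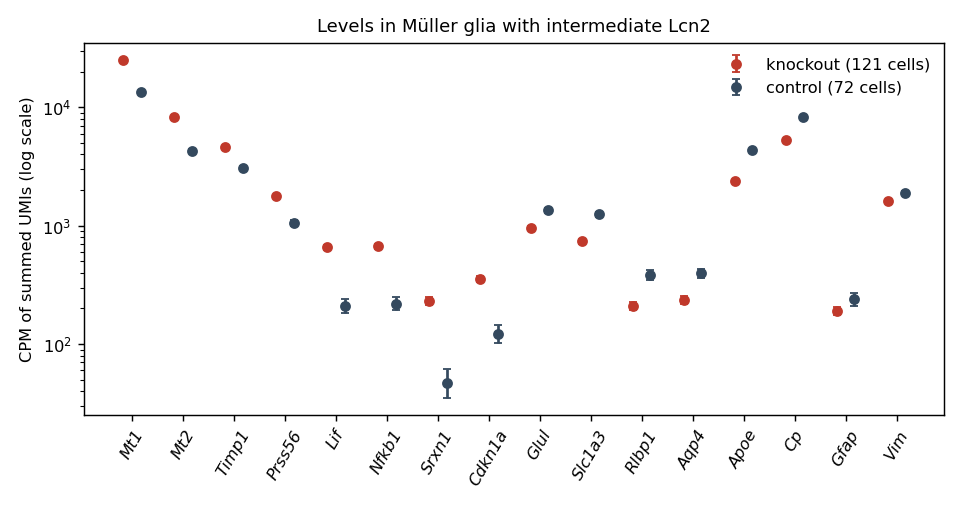
CPM of summed UMIs on a log axis of 16 genes in knockout (left point of each pair, 121 cells) and control (right point, 72 cells) Müller glia with intermediate Lcn2, with 95% Poisson intervals. Mt1 to Cdkn1a are higher in knockout cells, from Timp1 at 1.51-fold to Srxn1 at 4.89-fold, and the genes from Glul to Vim are lower, Glul, Gfap and Vim by less than 1.5-fold.

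Genes of the NF-κB response, the pathway that LPS triggers through its receptor, divided. Of 23 measured genes 6 were higher (Nfkb1, Tlr2, Rel, Tnfaip2, Nfkbib and Cebpb) and 4 lower (Ptx3, Irf1, Tnfaip3 and Vcam1), with a median log2 ratio of 0.15. Without Lcn2, which chose the cells, 22 genes remained, with the same 6 and 4 and a median of 0.15. Nfkb1, the p105/p50 subunit, had 671 CPM (641 to 703) in knockout and 220 CPM (192 to 250) in control cells (3.06, 2.67 to 3.52), and its ratio lay between 2.03 and 5.43 in the 4 Lcn2 ranges. Rel, another subunit, had 88.6 and 39.6 CPM (2.24, 1.61 to 3.19). Tnfaip3, the deubiquitinase A20 that dampens the pathway, had 82.8 and 154 CPM (0.539, 0.438 to 0.663), and Irf1 104 and 229 CPM (0.456, 0.383 to 0.543). Ptx3, a pattern recognition protein, was lower at 98.5 and 262 CPM, with 27.9% of its knockout and 43.5% of its control UMIs in 1 cell each, and turned to 1.32 without the 5 cells with most of it. Cebpd, a transcription factor of the acute phase response, was abundant and close in both, at 2905 and 3176 CPM (0.915).

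Of 15 measured chemokines and cytokines, 5 were higher and 1 lower, with a median log2 ratio of 0.30. Cxcl2, a neutrophil attractant, had 433 and 108 CPM (3.99, 3.29 to 4.88) and was seen in 37.2% and 20.8% of cells. Gdf15, a stress cytokine, had 215 UMIs in knockout and 6 UMIs in control cells (ratio 13.9, 6.29 to 38.4), with 45.6% of the knockout UMIs in 1 cell. Clcf1 and Cxcl16 had ratios of 1.56 and 1.60. Ccl2, the main monocyte attractant and the most abundant of the list, had 727 and 943 CPM (0.772, 0.715 to 0.833), and 1 control cell held 28.9% of its control UMIs. The alarmin Il33 was at 855 and 600 CPM (1.43). Cxcl10, an interferon-induced attractant of T cells, had 208 and 407 CPM (0.512, 0.451 to 0.581), and its ratio lay between 0.109 and 0.485 up to 1% Lcn2 and was 13.6 at 1 to 2%, where control cells had 14.7 CPM.

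Interferon genes were more often lower than higher in intermediate cells, as were all genes (655 lower and 457 higher). In cells with rod markers under 0.2%, all genes were not more often lower (452 lower and 482 higher). Of 30 measured genes of the interferon gamma response and antigen presentation 9 were lower and 1 higher, with a median log2 ratio of -0.31. In low Lcn2 cells 0 of the 30 were lower and 10 higher (median 0.45), and in very high cells 9 and 1 (-0.48). Of all 5955 genes 1197 were lower and 618 higher in low cells, and 287 and 463 in very high cells. The 2 smallest ratios, of the GTPase Iigp1 (0.0932, 0.0629 to 0.135) and the invariant chain Cd74 (0.117, 0.0883 to 0.153), came with 36.0% of 150 and 38.1% of 236 control UMIs in 1 cell. Cd74 turned in cells with Ddx3y and without Xist, with 26.8 CPM (40 UMIs) in knockout and 10.35 CPM (4 UMIs) in control cells, a ratio of 2.59 (0.937 to 9.98). The GTPases Igtp and Irgm2 had ratios of 0.384 and 0.388, the guanylate binding proteins Gbp5 and Gbp6 0.496 and 0.609, and Cd274, which encodes the checkpoint ligand PD-L1, 0.448. Gbp6 had a UMI in 62.8% of knockout and 44.4% of control cells, a larger share in the knockout despite the lower level. Control cells were shallower, and these shares were not adjusted for depth. The class I genes B2m and H2-D1 stayed within 1.5-fold at 942 and 762 CPM in knockout and 1087 and 981 CPM in control cells. Socs1, a feedback inhibitor of interferon signalling, was the 1 higher gene, at 128 and 56.6 CPM (2.27, 1.72 to 3.03), but 1.37 in cells with Ddx3y. The count of 9 was 2 in cells with 0.5% or more Lcn2 and 0 without the 5 cells of each library with most of a gene. It was 8 in cells low in neuron markers. Of all genes counted under these settings, 11.3%, 3.58% and 9.14% were lower.

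Of 23 measured type I interferon genes 0 were higher and 4 lower, Ifit2, Cmpk2, Rsad2 and Stat2, with a median log2 ratio of -0.17. In low Lcn2 cells 7 of the 23 were higher and 1 lower (median 0.36), and in very high cells 2 and 2 (-0.16). Rsad2, the antiviral enzyme viperin, had 174 and 354 CPM (0.493, 0.430 to 0.566). Ifit2 had 26.0 and 63.2 CPM with 74.6% of the control UMIs in 1 cell, and turned to 1.74 without the 5 cells with most of it. Ifitm3, which blocks virus entry, was the most abundant at 2133 and 1540 CPM (1.39), and Irf7 had the largest ratio, 1.45. Bst2 was at 777 and 727 CPM. Of 5 measured complement genes 2 were lower, Cfb (0.367, 0.307 to 0.440) and C4b (0.537, 0.441 to 0.655). Cfb turned to 2.06 in cells with at least 0.5% Lcn2, was at 0.967 without the 5 cells of each library with most of it, and was higher in 2 and lower in 2 of the 4 Lcn2 ranges; the list's median log2 ratio of -0.42 turned to 0.41 in cells with at least 0.5% Lcn2. C3 had 219 and 245 CPM (0.892, 0.770 to 1.04), Serping1 191 and 256 CPM and C1ra 112 and 89.6 CPM.

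The oxidative stress list held Srxn1. It had the largest ratio of genes with at least 300 UMIs detected in at least 50% of a library's cells. These limits were set after the values were seen, and Srxn1 passed the 50% only in knockout cells, so its rank is a description. Srxn1, sulfiredoxin, which repairs over-oxidised peroxiredoxins, had 231 CPM (213 to 250) in knockout and 47.1 CPM (35.0 to 62.2) in control cells, a ratio of 4.89 (3.67 to 6.67). It was detected in 82.6% of knockout and 31.9% of control cells, with no more than 6.03% and 14.0% of its UMIs in 1 cell. Its ratio was 2.64, 4.86, 5.05 and 6.11 over the 4 Lcn2 ranges, and 5.90 in cells with Ddx3y and 5.19 in cells with Xist. Hmox1, heme oxygenase, had 278 and 70.7 CPM (3.94, 3.1 to 5.06), with 45.9% of the knockout UMIs in 1 cell and a ratio of 1.14 in cells with under 0.5% Lcn2, and the cystine transporter gene Slc7a11 209 and 138 CPM (1.52). Of 18 measured genes these 3 were higher, and Gstm1 (0.485), Gsta4 (0.626) and Prdx6 (0.643) were lower. The other 12 were within 1.5-fold, among them Txnrd1 (1.02) and Gclm (0.794).

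The upstream bases of Srxn1 are shown because this ratio was above 1 in all 4 Lcn2 ranges and both sets by sex-linked transcripts. The gene starts on the plus strand of chromosome 2, and the bases run from 250 to 11 before the RefSeq start (chr2:152105274-152105513 of GRCm38.p6, RefSeq promoter table). Capitals mark TGAGTCA, the AP-1 type core that antioxidant response elements can overlap, searched on both strands. It occurs 2 times, at -102 to -96 and at -45 to -39, and 4.35% of all 32851 promoters hold it at least once and 0.152% at least 2 times in this window. The letters TGACNNNGC, an antioxidant response core whose matches can overlap TGAGTCA read on the other strand, were not found there. They occur in 9.67% of promoters. Only this spelling was searched. The TGAGTCA at -45 to -39 is followed by gc, so a core with G in place of the C would match there.
Srxn1: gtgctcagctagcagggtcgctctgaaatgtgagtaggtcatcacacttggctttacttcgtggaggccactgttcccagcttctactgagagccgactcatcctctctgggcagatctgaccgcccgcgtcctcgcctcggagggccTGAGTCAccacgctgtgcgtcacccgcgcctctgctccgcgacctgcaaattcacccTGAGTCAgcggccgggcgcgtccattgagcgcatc

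Growth arrest genes divided. Of 16 measured genes of growth arrest and p53, 5 were higher and 2 lower, with a median log2 ratio of 0.29. Cdkn1a, the cell cycle inhibitor p21, had 356 CPM (334 to 379.5) in knockout and 122 CPM (102 to 145) in control cells (2.93, 2.44 to 3.55) and was detected in 87.6% and 29.2% of cells. Gadd45b and Gadd45a had ratios of 2.05 and 1.77 and Mdm2, the regulator of p53, 1.83. Gadd45g was lower, at 96.3 and 250 CPM (0.386, 0.324 to 0.459), but 1.11 in cells with Xist, and Sesn1 was at 0.487. Btg2 and the stress factor Atf3 were the most abundant, at 1673 and 1373 CPM in knockout and 1419 and 973 CPM in control cells.

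Of 28 measured AP-1 and early response genes 7 were higher and 2 lower, with a median log2 ratio of 0.20. Myc had 107 and 33.0 CPM (3.23, 2.27 to 4.73) and Csrnp1 347 and 148 CPM (2.34, 1.98 to 2.79). The AP-1 subunits Fosl1 and Fosl2 had ratios of 1.81 and 1.83, whereas Fosb was lower at 0.647. Fos and Jun, the most abundant, were at 4123 and 2995 CPM in knockout and 4375 and 3669 CPM in control cells. The phosphatase gene Dusp1 was lower at 391 and 664 CPM (0.589, 0.535 to 0.649), and turned to 1.15 when each cell was thinned to 2000 UMIs. These genes are known to respond to tissue dissociation too, and that part cannot be told apart from the response in the eye.

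Autophagy genes differed little. Atg5 (ENSMUSG00000038160, chromosome 10, 44268358 to 44364291) had 60 UMIs in knockout cells, 21.98 CPM (16.8 to 28.3), and 22 UMIs in control cells, 20.7 CPM (13.0 to 31.4), a ratio of 1.06 (0.640 to 1.81). The 3' tag that is counted may lie outside the deleted exon, so it checks neither the deletion nor the labels. Of 19 measured genes of the autophagy machinery 1 was higher and 1 lower, with a median log2 ratio of 0.20. Vmp1, a membrane protein needed to form autophagosomes, had 609 CPM in knockout and 339 CPM in control cells (1.79, 1.60 to 2.02) and was higher in all 4 Lcn2 ranges. Atg4a, a protease that primes LC3 relatives, had 25.6 and 43.4 CPM (0.591, 0.402 to 0.877), and turned to 1.61 in cells with under 0.5% Lcn2 and 2.06 in cells with Xist. Gabarap had 343 and 279 CPM (1.23). Of 22 measured autophagy receptor and lysosome genes 2 were higher, the mitophagy receptor Bnip3 (1.66, 1.17 to 2.41) and the lysosomal regulator Tfeb (1.68, 1.01 to 2.93), and 0 lower, with a median log2 ratio of 0.01. Bnip3 turned to 0.911 in cells with Ddx3y and was at 1.07 without the highest doublet scores. Cd63 and Ctsl, the most abundant, had ratios of 1.02 and 1.17.

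Several Notch and progenitor genes were lower. Of 13 measured genes 6 were lower (Notch2, Id1, Sox2, Nfia, Pax6 and Nfib) and 1 higher, with a median log2 ratio of -0.50. Of these 6, 4 are also in the list of resting genes. The count was 3 without the 5 cells of each library with most of a gene, where 3.58% of all counted genes were lower. Notch2 had 36.3 and 80.1 CPM (0.452, 0.335 to 0.612). Hes1, a Notch target, was at 492 and 694 CPM (0.708, 0.647 to 0.776), and Id3 at 704 and 554 CPM (1.27). The higher gene was Hmga2, a chromatin protein of progenitors, at 229 and 119 CPM (1.92, 1.59 to 2.35), with 42.9% of the control UMIs in 1 cell, and it turned to 0.730 in cells with under 0.5% Lcn2.

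The extremes of the ratio over all genes included neuronal genes on both sides. The 12 largest ratios were those of Galntl6 (35.4), Slit2, Ralyl, Unc5d, Gdf15, Cdh18, Grik1, Hecw2, Adm, Fgf12, Pcp4 and Sgms2 (8.16). Galntl6, Slit2, Unc5d, Cdh18 and Grik1 each had 35.0% to 59.7% of their knockout UMIs in 1 cell. Without the cells with the highest doublet scores, 17 of them in the knockout group, these 5 had ratios of 0.488, 0.334, 0.545, 0.283 and 0.665. Hecw2, a ubiquitin ligase, and Sgms2, a sphingomyelin synthase, were spread more widely, with a UMI in 57.0% and 36.4% of knockout cells and 8.33% of control cells each.

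The 12 smallest ratios were those of Iigp1, Cd74, Rp1, Sag, Cnga1, Foxp2, Rfx2, Pdzph1, Col11a1, Rcvrn, Gnat1 and Cplx4, from 0.0932 to 0.229. Cd74 had a ratio above 1 in cells with Ddx3y, on 40 and 4 UMIs and with an interval that included 1. Pdzph1 was at 0.926 in cells with under 0.5% Lcn2. Sag, rod arrestin, had 70.7 CPM in knockout and 371 CPM in control cells, and Gnat1, rod transducin, 44.3 and 196 CPM. Sag had a UMI in 42.1% of knockout and 76.4% of control cells. Summed rod markers had a ratio of 0.243, and bipolar markers 1.80 (308 and 172 CPM), so these sums differed in opposite directions between the libraries. The per-cell medians did not: bipolar markers had 77.4 CPM in knockout and 93.5 CPM in control cells, and rod markers 153 and 1095 CPM. Single cells reached 7430 CPM of bipolar markers in the knockout and 3654 CPM in the control library. The endothelial list, at 793 and 1260 CPM, rested on Flt1 and Kdr, with Tie1 at 0 and Pecam1 at 4 and 5 UMIs. Neutrophil markers without Lcn2 summed to 56.8 and 82.0 CPM, with Stfa2 at 0 in both libraries.

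A second ranking, chosen after the values were seen, took genes with 300 UMIs or more that were detected in 50% or more of the cells of either library. A gene can pass through the library where it is high alone, as Srxn1, Cdkn1a, Lif and Kdm6b did, so the ranking is a description. Of 2114 such genes 143 were at least 1.5-fold higher and 188 lower. The largest ratios were those of Srxn1, Inhba (4.44), Hmox1, Slc7a1 (3.68), Zfp385b (3.49), Myc, Lif, Kdm6b (3.09), Nfkb1, Scg2 (2.96), Cdkn1a and Homer1 (2.80). Inhba, a subunit of activin, had 201 and 45.3 CPM, Slc7a1, a transporter of arginine, 118 and 32.1 CPM, and Kdm6b, a histone demethylase, 338 and 109 CPM with a UMI in 90.1% and 44.4% of cells. The smallest included the rod genes Sag, Gnat1, Pdc, Prph2, Gngt1 and Rom1 together with Socs3, Abca8a, Spc25 and Pdlim3.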

How the data were processed

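The measurements were 10x Genomics 3' v3.1 libraries of papain-dissociated retinas, 1 per group. The authors deposited unnormalized UMI counts for every gene in each barcode. Per the series' design text, reads were mapped to mm10 with Cell Ranger 6.0.0, and Seurat 5.2.1 served for later steps. Genes were matched by symbol, and of 32285 features 40 repeated a symbol and only the first was counted.

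UMIs of the selected cells were summed per library and given as CPM with exact Poisson 95% intervals. Ratios are knockout over control with exact conditional binomial 95% intervals, and shares of cells have Clopper-Pearson intervals. Log2 ratios and the 1.5-fold counts had 0.5 UMI added to both sums. Genes with at least 100 UMIs over both libraries were counted, and the scripts were tested on simulated counts. Python 3.11.15 with numpy 2.4.6, scipy 1.17.1, pandas 2.3.3 and scanpy 1.11.5 was used, and edgeR 4.0.16 for TMM factors only. The selected cells, the 20 gene lists and the 15 marker lists were chosen with earlier results of these data known. Named genes had 100 or more UMIs, were detected in 10% or more of the cells of a library and were not predicted, mitochondrial, ribosomal or haemoglobin genes: the 12 largest and 12 smallest ratios, in each list the largest, smallest and 2 most abundant, the 10 genes peaking most in the range and 14 fixed genes; all others were named after their values were seen. The score between low and very high cells used log2 of the summed CPM with 100 CPM added. Alternatives changed the depth floor, marker limits, Lcn2 range, weighting, scaling, gene filter and doublet handling. A few genes are not reported here.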

Additional observations from a re-analysis of the deposited data

Results flagged for a closer look

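Rlbp1, Gfap and Vim had ratios of knockout over control on opposite sides of 1 in different Lcn2 ranges, with counting intervals that did not include 1; the difference between ranges was not tested. Rlbp1, a gene that the rule used, had a ratio of 0.541 in intermediate cells and 1.44 in very high cells. Gfap had 0.7985 in intermediate cells, against 3.09 in low and 1.28 in very high cells. Vim had 0.849 in intermediate cells, against 1.58 in low and 1.17 in very high cells. In low cells Gfap was at 220 CPM in the knockout and 71.2 CPM in the control library.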

How the results depend on the processing

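No paired analysis was possible because there was 1 library per group. The counts of 457 higher and 655 lower genes became 1009 and 1666 with a floor of 30 UMIs per gene (10216 genes counted), 172 and 206 with 300 UMIs (2298), 105 and 63 with cells thinned to 2000 UMIs (581 genes counted), 962 and 162 without the 5 cells of each library with most of a gene (4524), and 164 and 224 in cells with Xist and without Ddx3y (1432 genes counted). Leaving out 5 cells takes a larger share of 72 than of 121 cells and moved the median log2 ratio of all genes to 0.26. With rod markers under 0.2%, 482 genes were higher and 452 lower (5498 counted). The lower count alone became 413 of 4521 genes (9.14%) with neuron markers under 0.3%, 348 of 2694 (12.9%, a larger share than the 11.0% of all cells) with Lcn2 under 0.5%, and 1197 of 5955 with equal weight per cell; 325 genes were higher in cells low in neuron markers, where the control share in the range was 14.7%. Resting genes lower, rule genes included, numbered 12 with Lcn2 from 0.5%, 2 thinned and 9 without the top 5 cells. Interferon gamma genes lower numbered 2, 0 and 0 in these, 2 with 300 UMIs, 4 with Ddx3y and 5 with Xist. Notch genes lower numbered 2 thinned and 3 without the top 5 cells. Of all genes counted, 11.3% were lower with Lcn2 from 0.5%, 10.8% thinned and 3.58% without the top 5 cells. With 300 UMIs the share was 8.96%, with Ddx3y 16.1% and with Xist 15.6%.

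Ratios that turned were, without the highest doublet scores, Galntl6 0.488, Slit2 0.334, Unc5d 0.545, Cdh18 0.283 and Grik1 0.665; with Lcn2 under 0.5%, Atg4a 1.61, Hmga2 0.730, Nrg1 5.15, Dscaml1 2.65 and Pde8b 1.92; with Lcn2 from 0.5%, Ifit2 2.20, Cfb 2.06 and the complement median 0.41; without the top 5 cells, Ptx3 1.32, Ifit2 1.74, Nrg1 1.77 and Stmn2 2.41; thinned, Dusp1 1.15 and Ern1 0.595; with Müller markers at 0.3%, Nrg1 1.60; with rod markers under 0.2%, Slc17a7 1.03; with Ddx3y, Hk2 0.886, Bnip3 0.911 and Cd74 2.33; with Xist, Unc5d 0.103, Fgf12 0.192, Grik1 0.237, Cdh18 0.269, Slit2 0.554, Galntl6 0.961, Gadd45g 1.11, Ifit2 1.35, Atg4a 2.06 and Ptx3 2.80. The ratios that turned had 0.5 UMI added to both sums. Without that addition Cd74 with Ddx3y was 2.59, and its interval (0.937 to 9.98) included 1. The splits by neuron markers and by sex-linked transcripts were chosen after the data were seen, and the causes were not tested. Over all alternatives, 1423 ratios of single genes stayed within their counting interval, 703 moved beyond it, and 33 of genes past 1.5-fold changed direction. TMM scaling shifted every log2 ratio by 0.01. Depth limits genes under 100 UMIs, as for Atg5 with 22 control UMIs.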

Other observations

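Further lists covered metabolism, protein stress and the cell cycle. Of 15 measured cholesterol synthesis genes 4 were at least 1.5-fold higher in knockout cells and 0 lower, with a median log2 ratio of 0.31. Insig1, which holds the sterol sensor in the endoplasmic reticulum, had 137 CPM in knockout and 60.3 CPM in control cells (2.27, 1.74 to 3.01), and Sqle, squalene epoxidase, 105 and 61.3 CPM (1.72, 1.31 to 2.28). Hsd17b7 and Sc5d had ratios of 1.82 and 1.62. The most abundant members, Hmgcs1 and Msmo1, were at 318 and 295 CPM in knockout and 233 and 257 CPM in control cells. Of 17 measured glycolysis genes 1 was higher, Hk2 (1.59, 1.26 to 2.04), which turned to 0.886 in cells with Ddx3y, and 0 lower, and Gapdh and Eno1 had ratios of 1.07 and 0.753.

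Of 16 measured genes of the unfolded protein and integrated stress response 1 was higher, the stress sensor Ern1 (1.66, 1.03 to 2.77), which turned to 0.595 when cells were thinned, and 0 lower, and the chaperone Hspa5 stood at 502 CPM in knockout and 566 CPM in control cells. Of 12 measured heat shock genes 1 was higher, Hsph1 (1.63), and 1 lower, Hspa4l (0.528), while Cryab was at 1643 and 1905 CPM. Of 9 measured cell cycle genes Ccnd3 was higher (1.65, 1.47 to 1.86), and Spc25 (0.347) and the cyclin gene Ccnd1 (0.478, 0.404 to 0.566) were lower.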
